A study of Homo sapiens with 9 samples.

Results

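The genes described here encode the working parts of the lysosome: cathepsins and other peptidases, glycosidases, sulfatases, lipid-handling proteins, membrane proteins, 14 genes of the vacuolar proton pump (V-ATPase) and the transcription factors TFEB and TFE3. They were taken by symbol from a fixed list of 48 genes. All 48 stand in the expression table, which holds 29972 genes, and 47 had enough signal to be tested. RNA was sequenced from H2030, a line established from a human lung cancer of the non-small cell type, so every result comes from 1 line. The cells of all groups received siRNA at 20 nmol/L with a lipid transfection reagent, and each group has 3 libraries. The control group received a non-targeting pool. The siMENA11a group received a mix of siRNAs designed within exon 11a of ENAH, the exon that marks the epithelial isoform hMENA11a of this actin regulator. The siMENA group received a pool against all ENAH isoforms, which belongs to a different product line than the control pool. The sources used here do not give the siRNA sequences. The labels number the libraries but do not call them separate cultures, so p-values measure only how these libraries vary, and that variation may be technical.

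Lysosomes digest proteins, sugars and lipids in an acid lumen that the V-ATPase keeps acidic by pumping protons across the membrane. The pump couples a cytosolic V1 sector, which splits ATP, to a membrane V0 sector, which carries the protons. TFEB and TFE3 bind E-box-like elements in the promoters of lysosomal genes (the CLEAR network) and are held in the cytosol by mTORC1 signalling when nutrients are plentiful. In tumour cells, secreted cathepsins are known for cutting matrix proteins.

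Values below are TPM (transcript abundance per unit of length, relative to the library's whole) divided by a size factor for each library, called scaled TPM. The control libraries had size factors of 0.995 to 1.04, the siMENA11a libraries 0.886 to 0.973 and the siMENA libraries 1.06 to 1.09. RN7SL transcripts, from an abundant structured RNA, took 40.2% ± 0.77 (SD, n = 3) of all TPM in the control libraries, 44.9% ± 0.49 in siMENA11a and 40.1% ± 0.52 in siMENA libraries. ENAH itself ranged over the control libraries from 43.2 to 44.7 scaled TPM, over siMENA11a from 46.7 to 48.7 and over siMENA from 6.89 to 7.48, and fell by 2.52 on the log2 scale in siMENA (limma, adjusted p = 4.98e-10), while with siMENA11a its total was higher by 0.12 (adjusted p = 0.0247). The table has 1 value per gene, so the level of the exon 11a isoform alone, the target of siMENA11a, was not analysed here. Of 6 epithelial markers, KRT8 and KRT18 were abundant and CDH1 and KRT19 stayed under 1 scaled TPM in every library. The sum of the 6 was 356 to 368 scaled TPM over control, 315 to 329 over siMENA11a and 312 to 331 over siMENA libraries. KRT8 and KRT18 made most of it, and the list did not move as one. EPCAM was higher with both siRNA preparations, with means of 1.458 in control, 2.899 in siMENA11a and 3.097 in siMENA libraries. KRT7 was higher with siMENA11a and lower with siMENA, with means of 9.93, 15.8 and 4.32 in that order. Fibroblast markers summed to 8.86 to 9.44, 7.82 to 8.24 and 15.4 to 17.3 scaled TPM in the same order, and endothelial markers to 0.513 to 0.672, 0.550 to 0.587 and 0.973 to 1.22. COL1A1 made most of the fibroblast sum, with means of 7.72, 6.38 and 14.6. CDH5 made most of the endothelial sum, with 0.576, 0.535 and 1.06. The other markers stayed under 1 in every library for 5 of 7 and 5 of 6 genes. All libraries come from 1 line, so these sums are marker RNA levels and not counts of other cells. The part of these marker levels in the results was not tested. In bulk RNA, fewer cells with a transcript and less of it per cell cannot be told apart.

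The lysosomal genes changed differently with the 2 siRNA preparations. With siMENA11a, 29 of the 47 tested genes were higher than in control and 6 were lower, with CTSB and SUMF1 falling about 4-fold. Over all 13498 genes tested, 27.9% were higher and 27.7% lower in that comparison. With siMENA, 12 genes were higher and 17 lower, with CD68, NPC2 and the pump subunits ATP6V1C1 and ATP6V0E1 falling furthest, while 23.7% of all genes were higher and 25.8% lower. Set directly against siMENA, the siMENA11a libraries had 27 genes higher and 7 lower, beside 29.5% and 29.2% of all genes. A gene was called when limma's Benjamini-Hochberg adjusted p, over all genes tested, was under 0.05. By the F test among the 3 groups, 42 of the 47 differed, beside 73.2% of all genes. The 5 that did not pass it were ARSA, ARSB, TFEB, ATP6V1B2 and ATP6V1H.

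The median log2 fold change of the 47 genes was 0.20 with siMENA11a against control, beside 0.015 over all genes tested. It was -0.041 with siMENA against control, beside 0.0076, and 0.19 with siMENA11a against siMENA, beside 0.00065. The siMENA11a and siMENA comparisons share the control libraries, so their values are set side by side and the difference is taken from the direct comparison. Most rises were small: the 29 fitted rises with siMENA11a ran from 0.10 to 0.58 on the log2 scale, at most 1.49-fold. By group means, CTSF, a gene of low level, reached 162% of control. The counts depended on scaling. With siMENA11a, 14 of the 35 calls were lost under at least 1 other scaling: ATP6AP2, ATP6V0A1, ATP6V0B, ATP6V1H, CTSA, CTSD, CTSO, LAMP1, LAMP2, MANBA, MCOLN1, NEU1, NPC2 and SCARB2. With siMENA, those of ATP6AP1, ATP6V0A1, ATP6V1E1, LAMP2 and TFE3 were lost. Under all 3 other scalings CTSC, PPT1 and ATP6V1B2 were called higher with siMENA. On TPM as deposited, without size factors, the median of all genes moved by -0.11 with siMENA11a against control, and 16 lysosomal genes were higher and 9 lower, beside 14.6% and 36.4% of all genes. With siMENA against control the split was then 16 higher and 12 lower, beside 29.5% and 17.1% of all genes. Without small and structured RNAs it was 19 and 14, beside 32.9% and 16.9%, and after quantile normalisation 16 and 14, beside 26.2% and 22.5%. In the direct comparison on TPM as deposited it was 15 higher and 12 lower, beside 15.1% and 46.9% of all genes, whose median moved by -0.20.

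**Figure D1:**
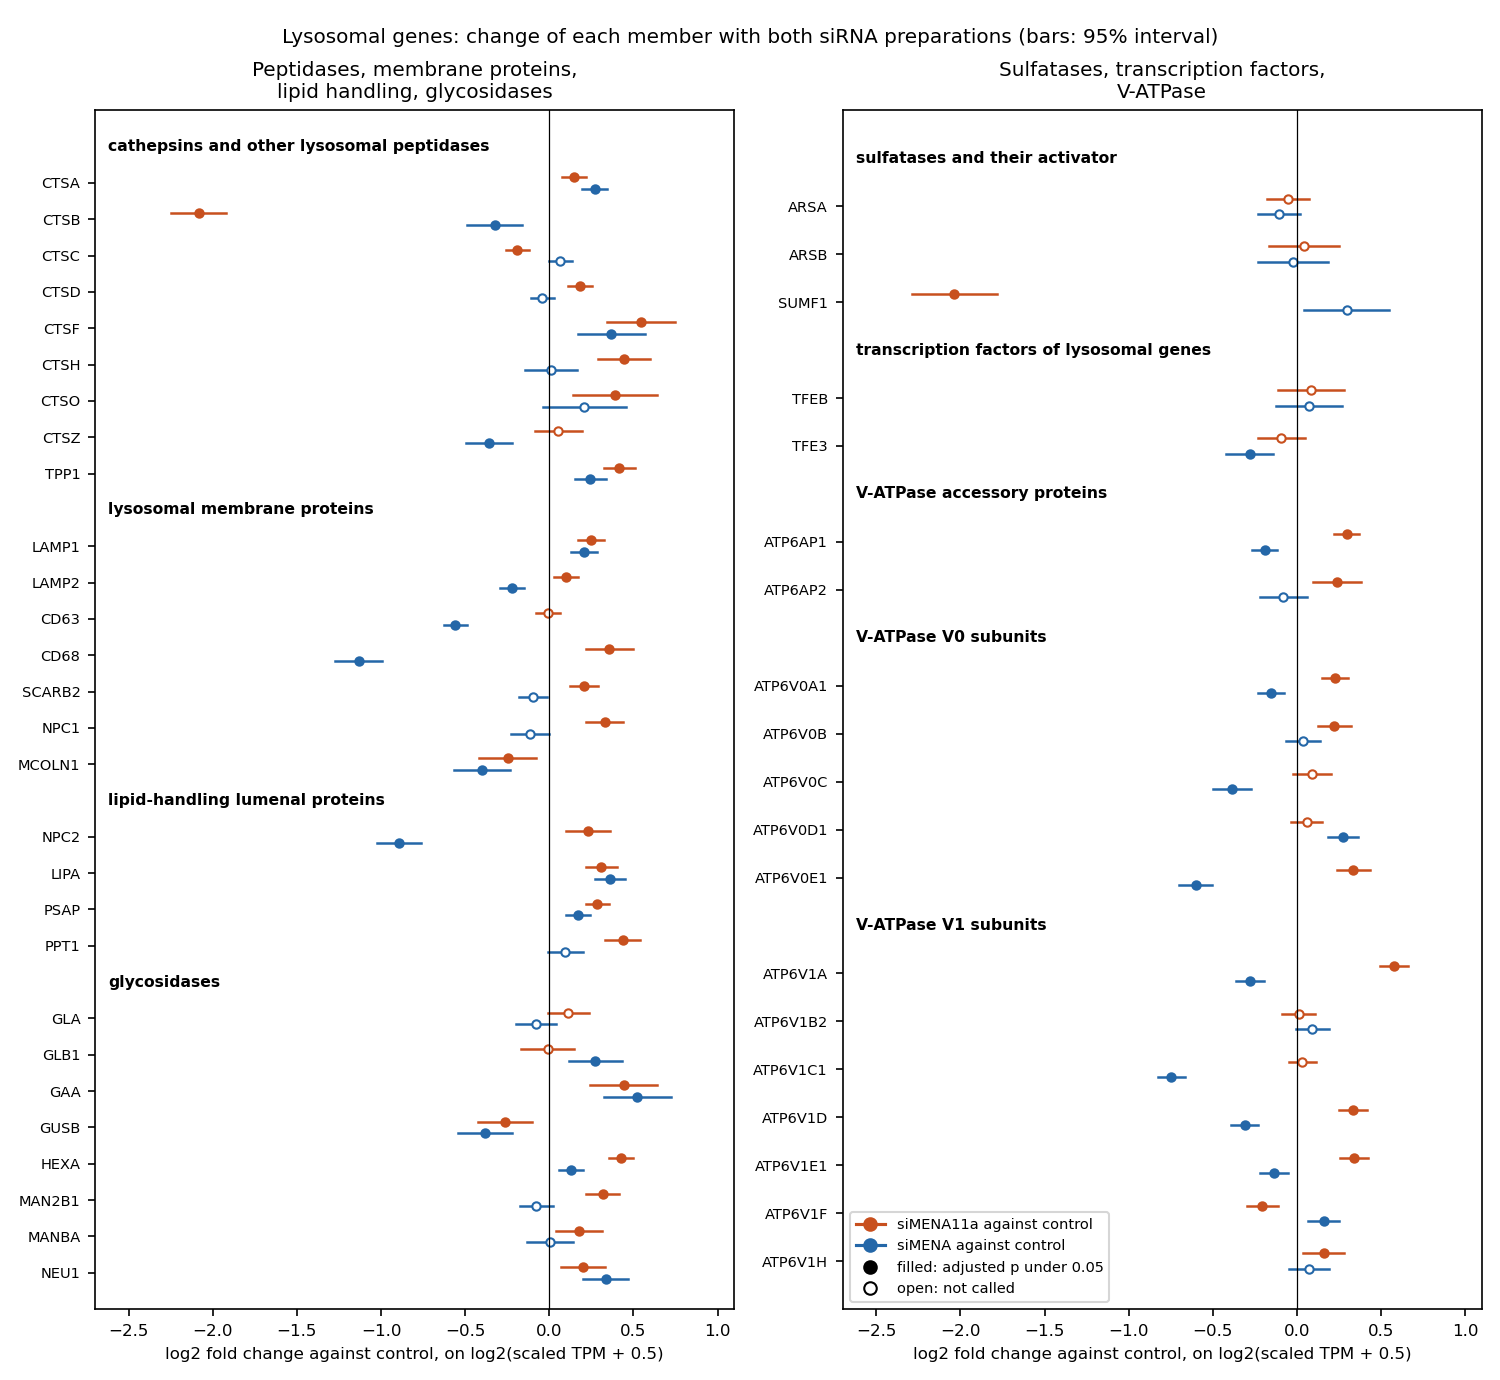
Log2 fold change against control, on log2(scaled TPM + 0.5), of the 47 tested lysosomal genes, grouped by role, in siMENA11a (orange) and siMENA (blue), with bars for the 95% interval and filled points for an adjusted p under 0.05. CTSB and SUMF1 lie near -2 in siMENA11a, and CD68 and NPC2 lie furthest left in siMENA.

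Among the peptidases, siMENA11a was marked by the loss of CTSB, cathepsin B, a cysteine protease of the lysosome that tumour cells can also secrete. CTSB stood at 62.8, 66.3 and 64.8 scaled TPM in the control libraries. It stood at 16.5, 15.1 and 13.1 in siMENA11a and at 48.5, 52.3 and 53.8 in siMENA libraries. No group overlapped another, with siMENA11a far lowest and siMENA between it and control. The change with siMENA11a was -2.08 ± 0.073 (log2, SE; limma, adjusted p = 7.46e-08), which left 23.1% of the control mean, and CTSB was the 20th lowest of the 13498 fold changes. With siMENA it fell by 0.32 (adjusted p = 0.00495), and siMENA11a was lower than siMENA by -1.76 (adjusted p = 8.89e-08).

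The other peptidases moved less, and most were higher with siMENA11a. CTSF, a cysteine cathepsin, rose by 0.55, CTSH, an aminopeptidase, by 0.44, and TPP1, the tripeptidyl peptidase deficient in a neuronal ceroid lipofuscinosis, by 0.41 on the log2 scale. CTSO rose by 0.39, CTSD, the main aspartic protease, by 0.18, and CTSA, the carboxypeptidase that also protects NEU1 and beta-galactosidase, by 0.15. CTSC, the dipeptidyl peptidase that activates granule proteases, fell by 0.19, and CTSZ had a log2 change of 0.054 (95% interval -0.084 to 0.19). In all, 6 of 9 tested peptidases rose and 2 fell, beside 27.9% and 27.7% of all genes. With siMENA, CTSF rose by 0.37, CTSA by 0.27 and TPP1 by 0.24, while CTSZ fell by 0.36 along with CTSB. CTSC, CTSD, CTSH and CTSO were not called there, with log2 values of 0.066, -0.041, 0.0099 and 0.21, although CTSO passed the threshold without control replicate 1 (0.31, adjusted p = 0.0400). Under the 3 other scalings CTSC was called higher with siMENA, at 0.15 to 0.18. CTSS, the cathepsin of antigen-presenting cells, ranged from 0.23 to 0.59 scaled TPM over all libraries and was not tested.

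The make-up of the peptidase transcripts changed more than their total. The 10 peptidases summed to 522 ± 5.63 scaled TPM in the control libraries, 513 ± 9.14 in siMENA11a and 497 ± 18.0 in siMENA libraries (SD, n = 3). CTSB made up 12.4% ± 0.31 of that sum in control, 2.91% ± 0.38 in siMENA11a and 10.4% ± 0.20 in siMENA libraries. The share of CTSD was 19.5% ± 0.54 in control and 22.5% ± 0.25 in siMENA11a, and that of CTSA was 16.9% ± 0.34 and 19.0% ± 0.19. CTSZ, the largest share, stood at 31.8% ± 0.81 in control, 33.6% ± 0.89 in siMENA11a and 26.0% ± 1.48 in siMENA libraries.

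**Figure D2:**
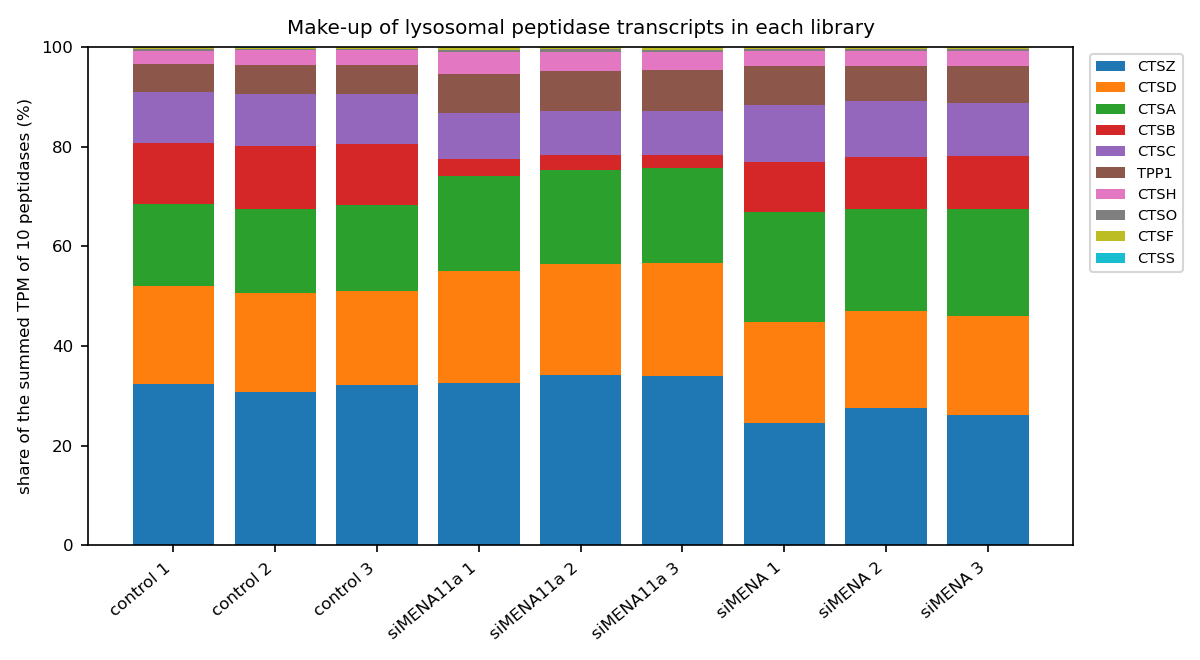
Share of the summed TPM of 10 lysosomal peptidases (percent, stacked bars, 1 bar per library). The CTSB band (red) narrows from 12.4% in control to 2.91% in siMENA11a, and the CTSZ band at the bottom is narrower in siMENA.

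SUMF1 was the second steep fall with siMENA11a. It encodes the formylglycine-generating enzyme of the endoplasmic reticulum, which every sulfatase needs to become active. The control libraries held SUMF1 at 12.0, 11.9 and 12.0 scaled TPM, the siMENA11a libraries at 3.23, 2.32 and 2.19 and the siMENA libraries at 14.1, 14.2 and 16.3. The siMENA11a libraries were far below both other groups, and the siMENA libraries lay above all control libraries. The change was -2.04 ± 0.11 with siMENA11a (limma, adjusted p = 7.05e-07), which left 21.5% of the control mean, and -2.33 against siMENA (adjusted p = 1.99e-07). With siMENA the log2 value was 0.30 (95% interval 0.044 to 0.55, adjusted p = 0.0524). That value passed the threshold in fits without siMENA11a replicate 1 (adjusted p = 0.00441) or replicate 3 (adjusted p = 0.0379), on TPM as deposited (adjusted p = 0.0118) and without small and structured RNAs (adjusted p = 0.0131). The 2 sulfatases of the list, ARSA, which cuts sulfatide, and ARSB, which cuts sulfated glycosaminoglycans, were not called in any comparison. ARSA had log2 values of -0.052 with siMENA11a and -0.11 with siMENA, and ARSB of 0.043 and -0.024. On TPM as deposited ARSA was called lower with siMENA11a (-0.18, adjusted p = 0.0406).

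CTSB and SUMF1 share a feature of sequence. Exon 11a of ENAH holds the 7-letter word CCAAGGA and, overlapping it, the word CAAGGAA. These words had been picked in earlier work on the same data because genes with them in their 3′ UTR fell with siMENA11a, so what follows is a description and no test. The exon lies on the minus strand of chromosome 1 (GRCh38, chr1:225504991-225505053) and is shown with the words in capitals.
exon 11a of ENAH: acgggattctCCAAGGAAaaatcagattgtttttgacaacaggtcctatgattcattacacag
In annotated 3′ UTRs (GENCODE 29, sense strand), CTSB and SUMF1 each held 3 sites with either word, the most among the 47 tested genes. In CTSB they start 136, 695 and 767 bases after the stop codon, in a UTR of 785 bases. In SUMF1, on the minus strand, they start 4, 25 and 609 bases after the stop codon in a UTR of 998 bases. The SUMF1 sites are chr3:4362122-4362143, chr3:4362102-4362130 and chr3:4361517-4361546, shown with the words in capitals because they can be read against the exon.
SUMF1 site 1: caaCCAAGGAAagtcttcccca
SUMF1 site 2: tcttccccagtCCAAGGAgcagtcgtgtc
SUMF1 site 3: actttgtttttCCAAGGAAatcagtgtctt
Sites 1 and 3 hold both words, as the exon does, and site 2 holds CCAAGGA alone.

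Other lysosomal genes with these words did not all fall. Of the 47 tested genes, 8 carried at least 1 site (17.0%, beside 25.8% of the 11314 genes tested that have a 3′ UTR in the annotation). Besides CTSB and SUMF1 these were TPP1, LAMP2, CTSC, SCARB2, TFE3 and ATP6V0D1, each with 1 site. TPP1 (chr11:6613330-6613359, minus strand) and LAMP2 (chrX:120438949-120438978, minus strand) are shown because they hold the same 8 letters as the exon and were higher with siMENA11a, although the 0.10 of LAMP2 became -0.032 on TPM as deposited. The LAMP2 site lies in an annotated UTR of 2660 bases and is absent from that of another isoform, of 497 bases. Values per gene do not separate these isoforms.
TPP1 site: ctccccaaaccCCAAGGAActctcactctt
LAMP2 site: ggtttttccaaCCAAGGAAtttaaaactgt
Of the 8 carriers, 3 rose, 3 fell and 2 were not called, while of the 39 others 26 rose, 3 fell and 10 were not called. Over all tested genes with a UTR, 38.7% of carriers and 27.3% of the others fell. There, the share that fell at least 2-fold was 0.739% of 8395 genes with no site, 2.54% of 2168 with 1, 5.83% of 566 with 2 and 6.49% of 185 with 3 or more. Carriers have longer 3′ UTRs, with a median longest UTR of 2804 bases beside 1031 for other tested genes, and the part of length was not tested.

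Glycosidases, which trim sugar chains in the lumen, were mostly higher with siMENA11a: 5 of 8 rose and 1 fell, beside 27.9% and 27.7% of all genes. GAA, the acid alpha-glucosidase that breaks down glycogen, rose by 0.44, HEXA, a beta-hexosaminidase subunit, by 0.43 and MAN2B1, the acid alpha-mannosidase, by 0.32 on the log2 scale. NEU1, the sialidase, rose by 0.20 and MANBA, the beta-mannosidase, by 0.18. GUSB, the beta-glucuronidase, fell by 0.26. GLA, an alpha-galactosidase, and GLB1, a beta-galactosidase, were not called, at 0.11 and -0.010. GLA was called higher with siMENA11a without small and structured RNAs (0.19) and after quantile normalisation (0.20). The rise of MANBA missed the threshold without any 1 of 5 libraries: control replicates 1, 2 and 3 or siMENA11a replicates 1 and 3 (log2 values of 0.15 to 0.18, adjusted p from 0.0530 to 0.0948). With siMENA, GAA rose by 0.52, NEU1 by 0.33, GLB1 by 0.27 and HEXA by 0.13, and GUSB fell by 0.38, while GLA, MAN2B1 and MANBA were not called at -0.079, -0.078 and 0.0036. GLA passed the threshold without control replicate 3 (-0.13, adjusted p = 0.0474). GUSB has 10 annotated pseudogenes that can share its reads, so its values are uncertain.

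All 4 lumenal proteins that handle lipids rose with siMENA11a, beside 27.9% of all genes. PPT1, which removes palmitate from proteins, rose by 0.44, LIPA, the acid lipase that frees cholesterol, by 0.31, PSAP, the precursor of the saposins, by 0.29 and NPC2, which hands cholesterol to NPC1, by 0.23 on the log2 scale. PSAP was the most abundant gene of the 48, at 228 scaled TPM in control and 278 in siMENA11a. With siMENA, LIPA rose by 0.36 and PSAP by 0.17, PPT1 stood at 0.094 without a call (0.14 without control replicate 1, adjusted p = 0.0302), and NPC2 fell. NPC2 had 109, 107 and 95.4 scaled TPM in the control libraries, 55.3, 57.3 and 53.8 in siMENA and 125, 126 and 113 in siMENA11a. The 3 groups did not overlap, with siMENA lowest and siMENA11a highest. The change of NPC2 was -0.89 ± 0.058 with siMENA (limma, adjusted p = 2.60e-06), and siMENA11a was above siMENA by 1.12 (adjusted p = 3.00e-07).

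Among the membrane proteins of the lysosome, CD68 fell furthest with siMENA and rose with siMENA11a. CD68 is a heavily glycosylated relative of the LAMP proteins that is widely used as a macrophage marker. Its level was 96.1, 104 and 97.0 scaled TPM in the control libraries, 40.3, 45.9 and 48.7 in siMENA and 128, 129 and 124 in siMENA11a. The groups did not overlap, with siMENA below control and siMENA11a above it. The log2 change was -1.13 ± 0.063 with siMENA (limma, adjusted p = 1.06e-06) and 0.36 with siMENA11a (adjusted p = 0.000975), and the direct difference was 1.49 (adjusted p = 9.39e-08). The other markers of blood cells were at or near 0. Of 12 leukocyte and macrophage markers, 11 were under 1 scaled TPM in every library and CD3E, FCGR3A and TYROBP were at 0 in all 9. The 12 summed to 1.32 to 1.48 scaled TPM over the control libraries, 0.872 to 1.04 over siMENA and 1.67 to 2.31 over siMENA11a. The remaining marker, CD14, had log2 changes of 0.41 with siMENA11a (adjusted p = 0.0144) and -0.42 with siMENA (adjusted p = 0.0154), and its part in the values of CD68 was not tested.

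The other membrane proteins changed less, in different directions. With siMENA11a, NPC1, the cholesterol exporter, rose by 0.33, LAMP1 by 0.25, SCARB2, the receptor that carries glucocerebrosidase, by 0.21 and LAMP2 by 0.10 on the log2 scale. MCOLN1, the lysosomal calcium channel TRPML1, fell by 0.25, and CD63, a tetraspanin of late endosomes and exosomes, stood at -0.0066 (95% interval -0.078 to 0.064), or -0.14 on TPM as deposited (adjusted p = 0.0177). The call of LAMP2 was lost without control replicate 3 (0.078, adjusted p = 0.0706), siMENA11a replicate 1 (0.099, adjusted p = 0.0515) or siMENA11a replicate 3 (0.098, adjusted p = 0.0561). That of MCOLN1 was lost without control replicate 1 (-0.21, adjusted p = 0.0646), siMENA11a replicate 1 (-0.21, adjusted p = 0.0642) or siMENA11a replicate 2 (-0.23, adjusted p = 0.0597). With siMENA, CD63 fell by 0.56, MCOLN1 by 0.40 and LAMP2 by 0.22, LAMP1 rose by 0.20, and NPC1 and SCARB2 were not called at -0.12 and -0.098. These last values passed the threshold without control replicate 3, at adjusted p = 0.0231 for NPC1 and 0.0487 for SCARB2. The 7 membrane genes summed to 440 ± 3.15 scaled TPM in the control libraries, 488 ± 8.13 in siMENA11a and 319 ± 9.11 in siMENA libraries (SD, n = 3).

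**Figure D3:**
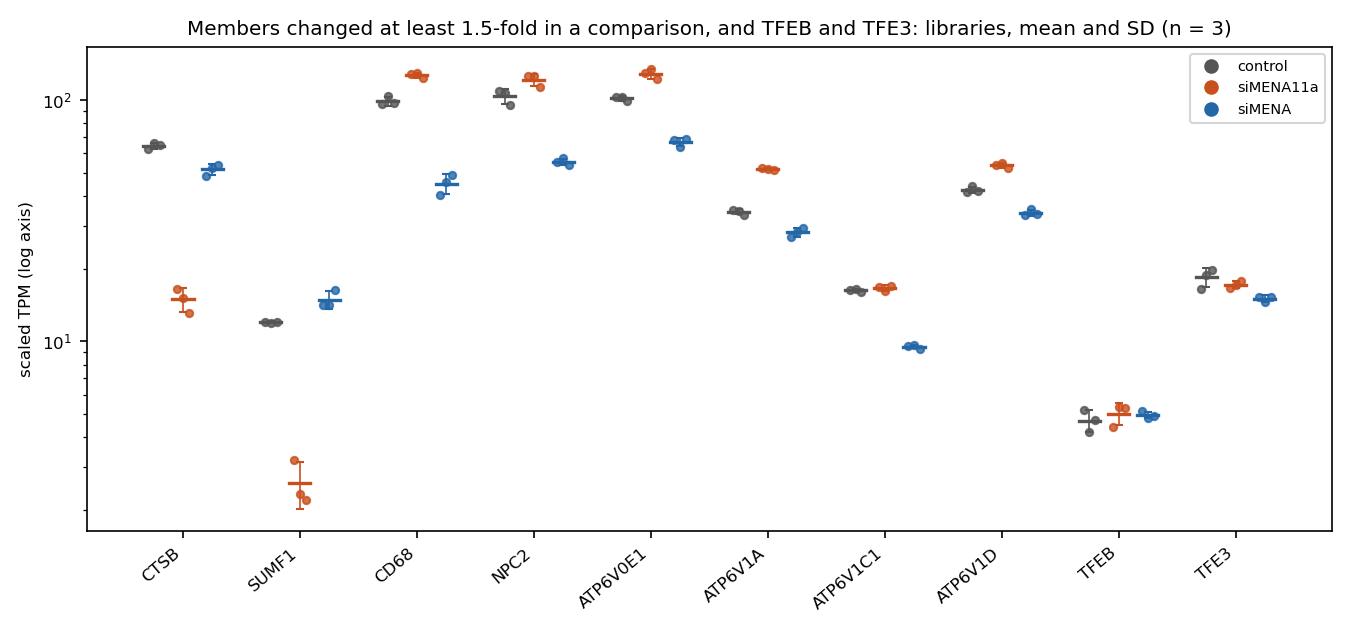
Scaled TPM (log axis) of the 8 genes with a fitted change of at least 1.5-fold in 1 of the 3 comparisons, and of TFEB and TFE3. Each library has a point, with a bar for the group mean and whiskers for the SD (n = 3). CTSB and SUMF1 are lowest in siMENA11a, CD68, NPC2, ATP6V0E1, ATP6V1A and ATP6V1D are ordered siMENA, control, siMENA11a, and the TFEB points overlap.

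The proton pump genes differed in direction between the groups. With siMENA11a, 9 of the 14 V-ATPase genes rose and 1 fell, beside 27.9% and 27.7% of all genes. With siMENA, 2 rose and 8 fell, beside 23.7% and 25.8%. In the direct comparison 10 were higher and 2 lower in siMENA11a, beside 29.5% and 29.2%. On TPM as deposited the same counts were 5 and 1 (beside 14.6% and 36.4%), 3 and 5 (29.5% and 17.1%), and 8 and 3 (15.1% and 46.9%). With siMENA, 5 rose and 5 fell without small and structured RNAs, beside 32.9% and 16.9%. After quantile normalisation 4 rose and 5 fell, beside 26.2% and 22.5%. The falls of ATP6AP1, ATP6V0A1 and ATP6V1E1 lost their calls under all 3 other scalings. The 14 genes summed to 789 ± 17.4 scaled TPM in the control libraries, 890 ± 24.1 in siMENA11a and 722 ± 4.26 in siMENA libraries (SD, n = 3), and the 3 ranges did not overlap.

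In the V1 sector, ATP6V1A, the catalytic subunit that binds ATP, had the largest fitted rise of any of the 47 genes with siMENA11a. By group means the rise of CTSF was larger, to 162% of the control mean beside 150% for ATP6V1A. The level of ATP6V1A was 35.0, 34.7 and 33.5 scaled TPM in the control libraries, 52.2, 51.5 and 51.2 in siMENA11a and 27.1, 28.3 and 29.4 in siMENA. The groups were well apart, and the changes were 0.58 ± 0.036 (adjusted p = 1.60e-06) and -0.28 (adjusted p = 2.00e-04) by limma. ATP6V1B2, the noncatalytic partner of ATP6V1A in the ATP-splitting ring, was not called in either, at 0.012 and 0.092, although the siMENA value was 0.12 to 0.19 and called under the 3 other scalings. ATP6V1D, the central rotor stalk, stood at 41.5, 43.8 and 41.8 in control, at 53.6, 54.8 and 52.2 in siMENA11a and at 33.3, 35.3 and 33.5 scaled TPM in siMENA libraries. It too was apart in all groups, with changes of 0.34 (adjusted p = 5.03e-05) and -0.31 (adjusted p = 0.000105). ATP6V1C1, a subunit that links V1 to V0 and governs their assembly, stood at 16.3, 16.5 and 16.0 in control, at 16.8, 16.2 and 17.0 in siMENA11a and at 9.56, 9.60 and 9.31 scaled TPM in siMENA libraries. The siMENA11a and control libraries overlapped (0.032, 95% interval -0.050 to 0.11), and the siMENA libraries were lower by -0.75 ± 0.036 (adjusted p = 5.29e-07).

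The remaining V1 genes changed in steps under 1.3-fold against control. ATP6V1E1, a peripheral stalk subunit, rose by 0.34 with siMENA11a and fell by 0.14 with siMENA. ATP6V1F, a rotor subunit, fell by 0.21 with siMENA11a and rose by 0.16 with siMENA. ATP6V1H, a regulatory subunit, rose by 0.16 with siMENA11a and stood at 0.071 with siMENA. The siMENA11a call of ATP6V1H was lost without control replicate 1 or 3, or without any 1 of the siMENA11a libraries (log2 values of 0.11 to 0.17, adjusted p from 0.0520 to 0.105). Its siMENA value was 0.17 and called higher without small and structured RNAs.

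In the V0 sector, ATP6V0E1, a small membrane subunit, stood at 103, 103 and 98.7 scaled TPM in control, at 129, 134 and 122 in siMENA11a and at 68.1, 63.7 and 68.7 in siMENA libraries. The groups did not overlap, and the changes were 0.34 (adjusted p = 0.000138) and -0.60 ± 0.043 (adjusted p = 4.65e-06) by limma. ATP6V0C, the proteolipid that forms the proton-carrying ring, had a log2 value of 0.087 with siMENA11a and fell by 0.39 with siMENA. ATP6V0B, its close relative in the ring, rose by 0.22 and stood at 0.035. ATP6V0A1, an isoform of the subunit that holds the proton channels, rose by 0.23 and fell by 0.15. ATP6V0D1, which joins the ring to the V1 rotor, had 0.058 with siMENA11a and rose by 0.27 with siMENA. With siMENA11a, ATP6V0C (0.17 and 0.15) and ATP6V0D1 (0.14 and 0.16) were called higher without small and structured RNAs and after quantile normalisation. Of the accessory proteins, ATP6AP1 rose by 0.30 and fell by 0.19, and ATP6AP2, also known as the prorenin receptor, rose by 0.24 and stood at -0.081. ATP6V0C, ATP6V0E1 and ATP6V1E1 have processed pseudogenes that can share reads.

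**Figure D4:**
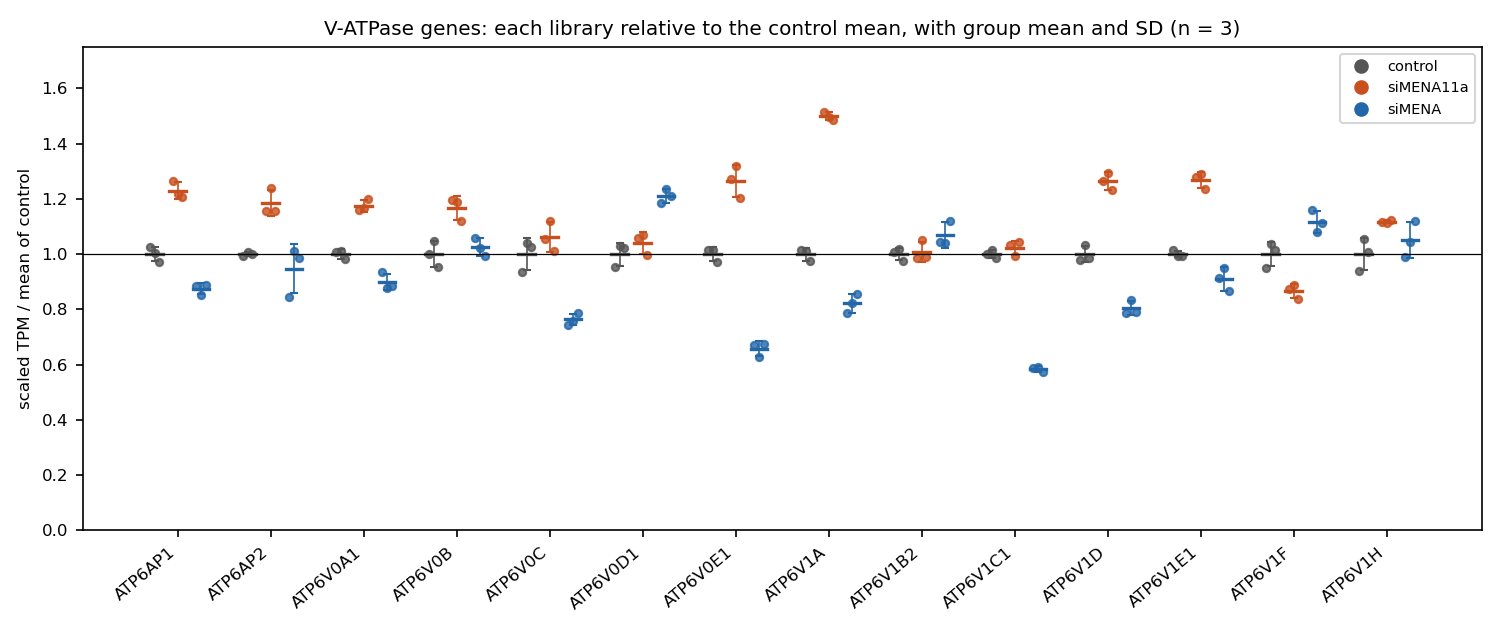
Scaled TPM of the 14 V-ATPase genes relative to the mean of the control libraries (linear axis from 0), with a point per library, the group mean and the SD (n = 3). In siMENA11a (orange) 9 genes were called above control, and in siMENA (blue) 8 were called below it, with ATP6V1A and ATP6V1C1 as the extremes.

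TFEB was not called in any comparison, and TFE3 fell with siMENA. TFEB stood at 5.16, 4.22 and 4.69 scaled TPM in control, at 4.39, 5.31 and 5.30 in siMENA11a and at 5.11, 4.82 and 4.88 in siMENA libraries. These values overlapped, with log2 values of 0.084 (95% interval -0.11 to 0.28) with siMENA11a and 0.071 (95% interval -0.13 to 0.27) with siMENA. TFE3 stood at 16.5, 18.9 and 19.8 in control, at 16.6, 17.2 and 17.7 in siMENA11a and at 15.3, 14.5 and 15.3 scaled TPM in siMENA libraries. The siMENA libraries were below all others, by -0.28 against control (limma, adjusted p = 0.00462), and the siMENA11a value of -0.092 was not called. Without control replicate 1 the siMENA11a value became -0.17 (adjusted p = 0.0174), and on TPM as deposited -0.22 (adjusted p = 0.0395). These proteins act by moving into the nucleus, which RNA levels do not show.

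Some promoters of the lysosomal genes held the elements these factors bind. RefSeq promoters (GRCh38.p14, 250 bases before to 50 after a start) were at hand for 35 of the 48 genes. The core of the CLEAR element, TCACGTGA, which reads the same on both strands and contains the E-box CACGTG, was found in 5 of the 35 (14.3%). The share was 1.18% of all genes with a promoter, 2.26% of tested genes and 0.980% of all single promoter windows of that length. CACGTG was found in 12 of the 35 (34.3%), beside 8.77% of all genes with a promoter, 12.6% of tested genes and 7.26% of windows. The 5 genes with the core were CTSA, LAMP1, MCOLN1, GAA and ATP6V0D1. Windows of 40 bases are shown for 3 of them, which moved in different directions, with the core in capitals: LAMP1 at chr13:113297194-113297233 (plus strand), GAA at chr17:80101488-80101527 (plus strand) and MCOLN1 at chr19:7522566-7522605 (plus strand).
LAMP1: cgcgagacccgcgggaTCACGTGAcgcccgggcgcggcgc
GAA: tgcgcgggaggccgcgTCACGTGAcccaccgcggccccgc
MCOLN1: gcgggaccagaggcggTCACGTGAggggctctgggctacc
LAMP1, GAA and MCOLN1 each hold a second copy of the core nearby. With siMENA11a, 3 of the 5 rose (CTSA, LAMP1, GAA), MCOLN1 fell and ATP6V0D1 was not called. With siMENA, 4 rose (CTSA, LAMP1, GAA, ATP6V0D1) and MCOLN1 fell. Of the 214 tested genes with the core in their promoter, 75 rose and 53 fell with siMENA11a, and 72 rose and 56 fell with siMENA. Of the 9248 tested genes without it, 2676 rose and 2755 fell with siMENA11a, and 2302 rose and 2521 fell with siMENA. The median log2 fold changes of the 214 were 0.026 and 0.031.

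For siMENA, the words picked in the same earlier way are CAGAATA, with its shifted form AGAATAA, and CAGCGTA, with its shifted form AGCGTAA. Of the 47 tested genes, 9 carried at least 1 in a 3′ UTR (19.1%, beside 30.1% of tested genes with a UTR). With size factors, 4 of these 9 fell with siMENA (LAMP2, ATP6V0C, ATP6V1A and ATP6V1C1) and 0 rose. The 5 not called were CTSC, CTSO, PPT1, MANBA and ATP6V0B. Of the 38 others, 12 rose and 13 fell. The split of the 9 carriers depended on scaling. On TPM as deposited, CTSC (0.15) and PPT1 (0.18) were called higher, and LAMP2 lost its call (limma, adjusted p = 0.0588). Without small and structured RNAs, CTSC (0.17), CTSO (0.33), PPT1 (0.19) and ATP6V0B (0.14) were called higher. After quantile normalisation, CTSC (0.18), PPT1 (0.21) and ATP6V0B (0.14) were called higher. Over all tested genes with a UTR, 37.7% of carriers and 23.4% of the others fell with siMENA, and the median longest UTR was 2812.5 beside 969 bases, whose part was not tested. CD68, NPC2, ATP6V0E1 and CD63, which fell far with siMENA, held none of these words. ATP6V1A has 2 sites, of which 1 is shown (chr3:113810879-113810907, plus strand) with the word in capitals, and ATP6V0C has 1 (chr16:2519758-2519786, plus strand), 24 bases after its stop codon.
ATP6V1A site: aagaggtttctCAGAATAtctatggccac
ATP6V0C site: cccaccagccaCAGAATAttatgtaaaga

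**Figure D5:**
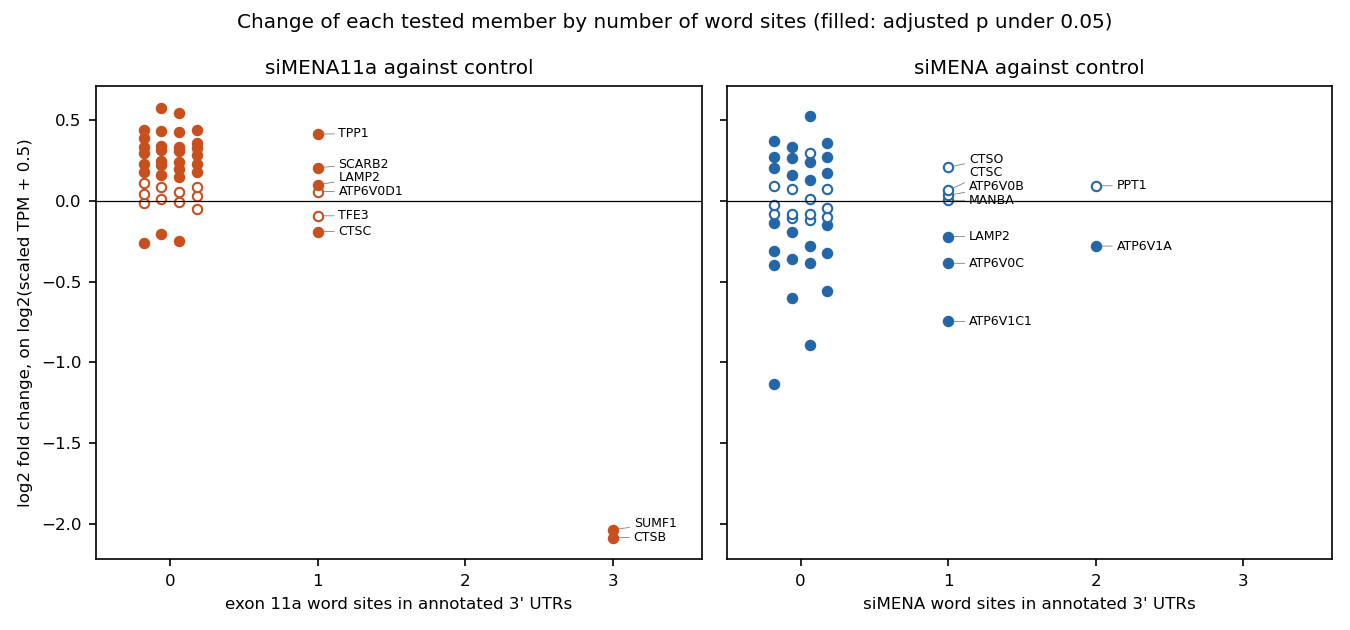
Log2 fold change of each tested lysosomal gene against the number of word sites in its annotated 3′ UTRs, for the exon 11a words with siMENA11a (left) and the siMENA words with siMENA (right), with filled points for an adjusted p under 0.05 and sideways spread only to separate points at 0. CTSB and SUMF1, with 3 sites, lie near -2 at left, while genes with 1 site lie on both sides of 0.

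Set directly against each other, the siMENA11a and siMENA libraries differed most in CD68 (1.49) and NPC2 (1.12), the 2 genes over 2-fold higher in siMENA11a, and in SUMF1 (-2.33) and CTSB (-1.76), the 2 over 2-fold lower. Next came ATP6V0E1 at 0.94 (adjusted p = 1.51e-07), ATP6V1A at 0.86 (adjusted p = 9.89e-08), ATP6V1C1 at 0.78 (adjusted p = 1.68e-07) and ATP6V1D at 0.65 (adjusted p = 5.22e-07) in limma. Genes higher by 0.40 to 0.60 in siMENA11a included CD63 at 0.55, ATP6AP1 at 0.49, ATP6V1E1 at 0.48, ATP6V0C at 0.47, CTSH at 0.43 and CTSZ at 0.41. The lower ones were ATP6V1F at -0.37, GLB1 at -0.28, CTSC at -0.26, ATP6V0D1 at -0.22 and CTSA at -0.12. Of the genes called higher, ATP6V0B, GLA, MANBA, PSAP, TFE3 and TPP1 had values below 0 on TPM as deposited. ATP6AP2, CTSD, HEXA, LAMP2, PPT1 and SCARB2 lost their calls there, and LAMP1 went from 0.044 to -0.17 (adjusted p = 0.0223). MANBA at 0.17 lost its call without siMENA11a replicate 1 (adjusted p = 0.0804), siMENA11a replicate 3 (adjusted p = 0.0989) or siMENA replicate 1 (adjusted p = 0.104). TFE3 at 0.19 lost its call without siMENA11a replicate 2 (adjusted p = 0.0610), siMENA11a replicate 3 (adjusted p = 0.0815) or siMENA replicate 2 (adjusted p = 0.0853). MCOLN1 (0.15) gained one without siMENA replicate 3 (0.21, adjusted p = 0.0442), and NEU1 (-0.14) without control replicate 3 (-0.14, adjusted p = 0.0128). On TPM as deposited NEU1 (-0.35), LIPA (-0.26), GAA (-0.29) and ATP6V1B2 (-0.29) were called lower, and NEU1 also after quantile normalisation (-0.15).

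Other genes of the same compartment were counted from lists of known lysosomal components. For all of these lists, the shares over all genes tested are 27.9% higher and 27.7% lower with siMENA11a. With siMENA they are 23.7% and 25.8%. Several of the counts lie near these shares, and no list was tested as a set. Of 14 further V-ATPase subunits and assembly factors tested, 4 were higher and 5 lower with siMENA11a, and 3 and 1 with siMENA. ATP6V1G2, a stalk subunit, rose by 1.13 and VMA21, a V0 assembly factor, fell by 0.42 on the log2 scale with siMENA11a. Of 7 further peptidases, 5 rose and 1 fell with siMENA11a, with PRCP at 0.38 and the fall being CTSV at -0.81. With siMENA 2 rose and 2 fell, among them CTSK at 0.42 and CTSL at -0.29. Of 28 further hydrolases and cofactors, 11 rose and 8 fell with siMENA11a, with GALC, the galactosylceramidase, at 0.68, PLA2G15, a lysosomal phospholipase, at -1.59, and GM2A, the activator that HEXA needs for its ganglioside, at -0.86. With siMENA 7 rose and 11 fell, with HGSNAT at 0.55 and GGH at -0.71.

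Of 23 further membrane proteins, 11 rose and 3 fell with siMENA11a, with SLC17A5, the sialic acid exporter, at 0.94 and OSTM1, the partner of the chloride transporter CLCN7, at -1.19. With siMENA 8 rose and 6 fell, with CLCN7 at 0.57, OSTM1 at -0.59 and LAMP3 at -0.60. Of 13 genes of mannose 6-phosphate sorting, which sends hydrolases to the lysosome, 6 rose and 2 fell with siMENA11a, GNPTG at 0.49 and GGA3 at -0.39, and 1 rose and 3 fell with siMENA. Of 16 genes that control TFEB through mTORC1 and the Rag GTPases, 5 rose and 3 fell with siMENA11a, and 5 rose and 8 fell with siMENA, where MTOR itself fell by 0.83 and YWHAB, a 14-3-3 protein, by 0.47. Among the rises with siMENA were RRAGB at 0.46 and PPP3CB at 0.28. Of 22 autophagy genes, 17 rose and 3 fell with siMENA11a, and 8 rose and 9 fell with siMENA. GABARAPL1, of the LC3 family, rose by 0.64 and 0.63 and ULK1, the initiating kinase, by 0.54 and 0.45. With siMENA11a ATG16L1 fell by 0.63 and MAP1LC3B by 0.39. With siMENA CALCOCO2 fell by 0.78 and RB1CC1 by 0.74. Of the 2 cystatins tested, which inhibit cysteine cathepsins, CST3 rose by 0.27 with siMENA11a and CSTB fell by 0.29 with siMENA.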

How the data were processed

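The authors' deposited table holds TPM values for 29972 genes in 9 RNA-seq libraries, rounded, 3 per group. Its name points to RSEM, while the submitters' processing notes name kallisto and GRCh37 without a role. The sources used here do not name the aligner, its settings or how strand was used, although the labels' protocols name a stranded kit after ribosomal RNA depletion. TPM keeps no depth, so counting error is unknown.

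Each library was divided by a median-of-ratios size factor over 12341 genes, and genes whose scaled TPM averaged 0.5 or more were kept. One limma (3.58.1, R 4.3.3) fit of 3 group means on log2(scaled TPM + 0.5), with a trended prior, gave 3 comparisons and an F test. P-values were adjusted by Benjamini-Hochberg over all 13498 genes tested. The scripts were tested on simulated data. The pseudocount makes fold changes of low genes too small. No 2 libraries held identical values, and 0 columns of other samples were present.

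The genes, the pathway and marker lists and the sequence words were chosen with earlier results of these data known. Values in every library are given for genes called in a comparison with a fitted change of at least 1.5-fold there and for CTSB, SUMF1, TFEB and TFE3. From each pathway list the text names, among called genes averaging 1 scaled TPM or more, no more than 2 rises and 2 falls, the largest ones. Reads of genes whose exons overlap an annotated gene on the opposite strand may be mixed: among the 48 these are ATP6V0B, ATP6V1A, ATP6V1D, ATP6V1F, CD63, CD68, CTSA, CTSD, GLB1, HEXA, LIPA, MANBA, NPC1, NPC2, PPT1, SUMF1 and TPP1. On the same strand, exons of another annotated gene overlap those of ATP6V0A1, ATP6V0C, CD68, CTSD, GLB1, HEXA, MAN2B1, MANBA, MCOLN1, NPC2 and TPP1. Reads there may be shared as well, and the longest such overlap is 1789 bases, in CD68. Alternatives were other scalings, pseudocounts of 0.1 and 1, no filter or a mean of at least 5, robust moderation, the replicate block, each library left out, and fits of 2 groups.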

Additional observations from a re-analysis of the deposited data

How the results depend on the processing

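Scaling mattered most. On TPM as deposited, 16 lysosomal genes were higher with siMENA11a against control (29 with size factors), and 15 were higher and 12 lower against siMENA (27 and 7). Without small and structured RNAs, 19 were higher with siMENA against control (12), as were 32.9% of all genes (23.7%). On TPM as deposited, LAMP2 had a log2 value of -0.032 with siMENA11a against control. Against siMENA, among genes called with or without size factors, these values turned from above to below 0: ATP6V0B at -0.029, GLA at -0.024, LAMP1 at -0.17 (0.044 with size factors), MANBA at -0.027, PSAP at -0.10, TFE3 at -0.024 and TPP1 at -0.044. Genes called in neither fit are not listed. The cause was not tested beyond the shift of all genes. Over 19 alternatives, 21 of 35 calls with siMENA11a, 24 of 29 with siMENA and 22 of 34 in the direct comparison were kept in every one, and the lost ones were lost by a change of scaling. Leaving out each library gave 26 to 29 higher and 5 to 6 lower with siMENA11a, 12 to 14 and 17 to 20 with siMENA, 25 to 28 and 7 to 8 in the direct comparison, and 39 to 43 by the F test. Replicate numbers are shared between groups. Deviations of same-numbered libraries correlated from -0.065 to 0.058, with 0 of 9 pairs over 0.1, and those of unlike-numbered ones from -0.064 to 0.10. Such correlations cannot show whether same-numbered libraries were made together, so pairing is not known. With the replicate block the counts were 30 and 6, 12 and 17, 27 and 8, and 42 by the F test. The shares over all genes in these refits are not given here. The counts alone therefore do not set the lysosomal genes apart from all genes. TPM keeps no depth, so what depth limits cannot be stated, and the data measure RNA, not protein or acidity.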
